A study of Mus musculus with 36 samples.

Results

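The comparison asked, gene by gene, whether loss of FMRP changed how ribosome-protected fragments (RPFs) were divided between the pellet and fraction 5/6 of a sucrose gradient. It used 12 of the 36 libraries of the series, namely the low nuclease RPF libraries, with 3 for each of WT pellet, WT fraction 5/6, FMR1 KO pellet and FMR1 KO fraction 5/6. The measure was the interaction, the log2 ratio of pellet to fraction 5/6 in FMR1 KO minus the same ratio in WT, so a value above 0 means that a gene was more pellet-enriched in FMR1 KO. It was tested for 15910 protein-coding genes. Each preparation pooled the brains of 10 C57BL/6 mice aged 5 days, either WT or carrying the FMR1 KO allele. Whole brain homogenates were run on gradients with 2.5 mM MgCl2, and both fractions were digested with RNase I in the cold until an inhibitor was added. The 2 genotypes therefore differed in the allele alone, as far as the labels say, and shared age, strain, tissue, salt and nuclease. Libraries of a group were pooled before reverse transcription, rRNA depletion and amplification, so a group and its shared pool cannot be told apart, and the p-values measure the spread between the 3 libraries of each group.

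FMRP, the product of Fmr1, is an RNA-binding protein that associates with polyribosomes and with neuronal RNA granules, and its loss causes Fragile X syndrome. RNA granules carry mRNAs with paused ribosomes into dendrites and axons. Because they are dense, they sediment to the bottom of a gradient, whereas fraction 5/6 holds lighter polysomes. An RPF is the piece of mRNA that a ribosome shields from nuclease, so RPFs count ribosomes on an mRNA rather than the mRNA itself.

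The 12 libraries held between 23634940 and 62310787 counted reads (median 39617672). Reads of Cdk8 made up 2.69 to 5.62% of each library and were removed beforehand. Fmr1, the deleted gene, was lower in all 6 FMR1 KO libraries than in all 6 WT libraries, as their labels say. Levels correlated across genes at a mean r of 0.958 between libraries of the same group, 0.955 between genotypes within a fraction and 0.941 between fractions within a genotype, so the libraries separated by fraction more than by genotype. FMR1 KO pellet replicate 1 stood apart on the second principal component (15.6% of the variance).

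Pellet and fraction 5/6 differed in many of the same genes in both genotypes. The overlap was larger for genes higher in the pellet than for lower ones. In WT, 4169 of 15910 genes (26.2%) differed between the fractions at an adjusted p under 0.05, 2141 higher and 2028 lower in the pellet. In FMR1 KO, 4477 genes (28.1%) differed, 2017 higher and 2460 lower. Scaling by library size alone gave a different split, with 1666 higher and 3227 lower in WT and 1271 higher and 4577 lower in FMR1 KO. The WT count fell to 2095 (1268 higher and 827 lower) without WT fraction 5/6 replicate 1 and to 2207 (1420 higher and 787 lower) without WT pellet replicate 3, and the FMR1 KO count to 2669 (1382 higher and 1287 lower) without pellet replicate 2 and to 2711 (1332 higher and 1379 lower) without fraction 5/6 replicate 1. The 1509 genes higher in the pellet of both genotypes were 70.5% of the WT genes and 74.8% of the FMR1 KO genes. The 1070 genes lower in both were 52.8% of the WT genes and 43.5% of the FMR1 KO genes. Across genes, WT and FMR1 KO enrichment correlated at r = 0.381 and rho = 0.648 (n = 15910 genes, which share libraries and are not independent). The threshold was passed in opposite directions by 5 genes, and in all 5 (4930579F01Rik, Ccdc82, Grin3b, Neurod4 and Spen) RPFs were lower in the pellet in WT and higher in the pellet in FMR1 KO.

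**Figure D1:**
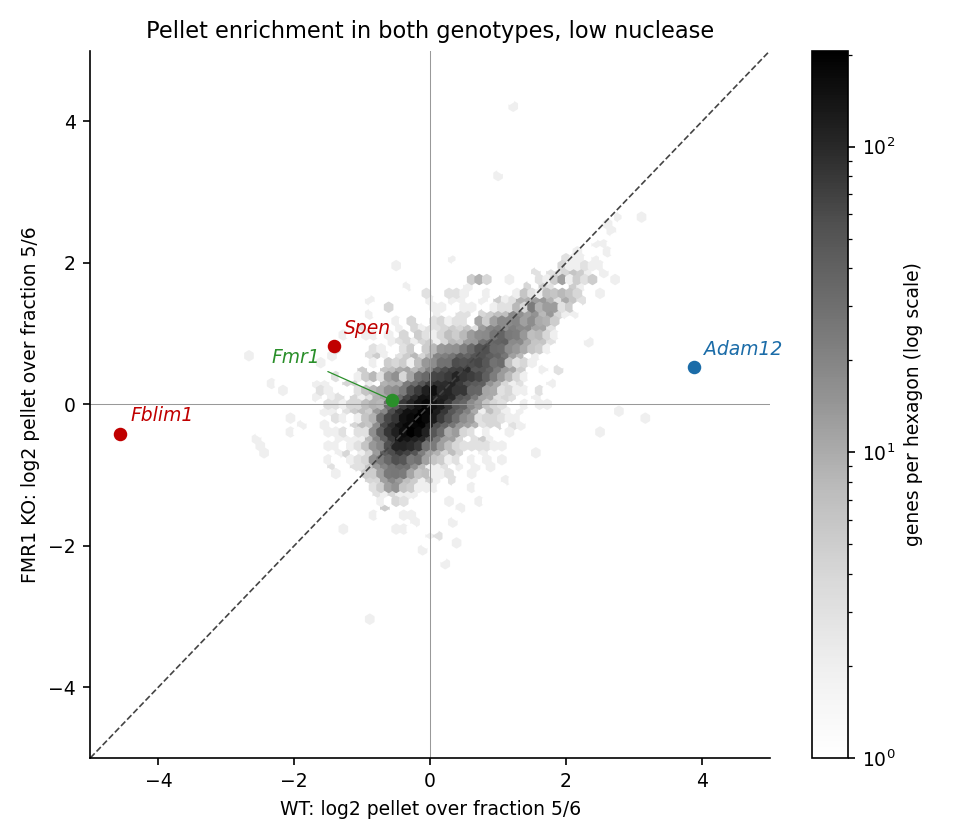
Log2 enrichment in the pellet over fraction 5/6 in WT (x axis) and FMR1 KO (y axis) of 15783 genes, shaded by the number of genes per hexagon on a log scale, with the dashed line marking equal enrichment (127 genes beyond 5 log2 units on an axis are not drawn). Most genes lie along the line, and Fblim1 (4.15) and Spen (2.24) lie above it and Adam12 (−3.36) below it.

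The interaction itself passed an adjusted p of 0.05 for 3 of 15910 genes (0.0189%, quasi-likelihood F test of edgeR, p-values adjusted by Benjamini-Hochberg). Fblim1 and Spen were higher (0.0126%) and Adam12 was lower (0.00629%). At an unadjusted p under 0.05 there were 1347 genes (8.47%), of which 704 were higher (4.42%) and 643 lower (4.04%). The unadjusted count fell to 871 without WT pellet replicate 1 and was between 871 and 1536 with each library left out in turn. The genotypes' ratios did not overlap, whichever pellet library was set against whichever fraction 5/6 library, for 578 genes (3.63%), 297 with FMR1 KO above WT (1.87%) and 281 below (1.77%). The median interaction was −0.05 and its quartiles were −0.29 and 0.19 on the log2 scale, with 56.5% of genes below 0. The count of called genes ran from 1 to 10 as libraries were left out 1 at a time, and DESeq2 called 92 genes.

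Few genes passed the adjusted threshold between genotypes within a fraction. In the pellet 10 genes (0.0629%) passed the adjusted threshold in edgeR, 5 of them higher in FMR1 KO (0.0314%) and 5 lower (0.0314%). In fraction 5/6 there were 17 genes (0.107%), 9 higher (0.0566%) and 8 lower (0.0503%). At an unadjusted p under 0.05 there were 861 genes in the pellet (5.41%) and 1896 in fraction 5/6 (11.9%). The genes at the adjusted threshold made 21 identifiers in all, with 6 in both fractions. Nnt, a mitochondrial transhydrogenase gene, was counted under 2 identifiers of the same locus among the 5 lower ones of the pellet, since the counts of both hold nearly the same reads.

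Fblim1 encodes filamin-binding LIM protein 1 (migfilin), an adaptor that links filamin to cell adhesions. The gene (ENSMUSG00000006219) lies at chr4:141576062-141606096 on the minus strand of GRCm38. Its RPF levels in WT fraction 5/6 were 329, 227 and 219.9 CPM (counts scaled to a common library total), whereas WT pellet held 11.6, 12.6 and 8.57 CPM. In FMR1 KO the pellet held 10.1, 8.9 and 8.62 CPM and fraction 5/6 held 15.9, 11 and 9.82 CPM. The 3 WT fraction 5/6 libraries thus stood far above all others, and the pellets of both genotypes overlapped. WT enrichment was −4.57 (adjusted p = 2.73e-05) and FMR1 KO enrichment was −0.41 (adjusted p = 0.194, both from edgeR), and the interaction was 4.15 ± 0.325 (log2 ± SE, adjusted p = 0.00249). The genotypes differed by −4.40 in fraction 5/6 (adjusted p = 6.28e-05) and by −0.25 in the pellet (adjusted p = 0.935).

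Spen encodes a large RNA-binding transcriptional corepressor best known for its part in X-chromosome silencing by Xist. It is the neighbour of Fblim1 (ENSMUSG00000040761, chr4:141467890-141538597, minus strand), with a gap of 37.5 kb that holds 0 other genes of the table. Spen read 369, 271 and 267 CPM in WT fraction 5/6 and 116, 127 and 96.4 CPM in WT pellet. FMR1 KO fraction 5/6 read 53.4, 75.3 and 54.9 CPM, and FMR1 KO pellet read 128, 98.8 and 97.2 CPM. The pellets again overlapped, and all WT fraction 5/6 libraries lay above all FMR1 KO ones. Enrichment was −1.42 in WT (adjusted p = 0.00122) and 0.82 in FMR1 KO (adjusted p = 0.0121, edgeR), which gave an interaction of 2.24 ± 0.271 (adjusted p = 0.0468). Spen is a member of the longer of the lists of FMRP targets described below.

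Adam12, a membrane-anchored metalloprotease of the disintegrin family (ENSMUSG00000054555, chr7:133883199-134232146, minus strand), differed in the other fraction. WT pellet held 45.5, 44.9 and 48.9 CPM, and WT fraction 5/6 held 2.19, 3.14 and 4.04 CPM. FMR1 KO pellet held 3.49, 6.1 and 3.94 CPM, and FMR1 KO fraction 5/6 held 2.53, 4.1 and 2.75 CPM. The WT pellet libraries were therefore high and the other 9 low. WT enrichment was 3.88 (adjusted p = 7.9e-05), FMR1 KO enrichment was 0.52 (adjusted p = 0.18), and the interaction was −3.36 ± 0.388 (adjusted p = 0.0452, edgeR).

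When the libraries were left out 1 at a time, Fblim1 passed the threshold in 12 of 12 fits, whereas Spen passed in 3 (adjusted p 0.0329 to 0.224, edgeR) and Adam12 in 4 (adjusted p 0.014 to 0.132). Under a block for replicate number within genotype, Spen did not pass (adjusted p = 0.28, edgeR), while Fblim1 (0.0174) and Adam12 (0.022) did. Gene totals do not show where in a gene the reads lie, and this limit holds for every level given here, among them those of Slc5a11, Tlx1, Hrh3, Grm2 and Ryr1 below. In RNA sequencing of the homogenates from the low nuclease preparations, the levels were 6.05, 2.23 and 4.82 CPM in WT and 4.97, 3.51 and 2.59 CPM in FMR1 KO for Fblim1. They were 106, 129 and 96 CPM in WT and 79.8, 104 and 132 CPM in FMR1 KO for Spen. For Adam12 they were 4.18, 7.53 and 6.98 CPM in WT and 4.57, 8.03 and 9.38 CPM in FMR1 KO. The RNA levels of all 3 genes thus overlapped between genotypes.

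Fmr1 (chrX:68678541-68717963) and its relatives were described by name. Fmr1 read 62.4, 68 and 61.7 CPM in WT pellet and 89.5, 89.5 and 104 CPM in WT fraction 5/6. It read 7.93, 8.71 and 8.47 CPM in FMR1 KO pellet and 9.91, 7.69 and 6.51 CPM in FMR1 KO fraction 5/6. The loss was −2.94 in the pellet (adjusted p = 3.66e-05) and −3.55 in fraction 5/6 (adjusted p = 7.05e-06, edgeR). Its interaction was 0.62 ± 0.196 (adjusted p = 0.583) and rests on the reads left in the FMR1 KO libraries.

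The paralog Fxr1, another granule RNA-binding protein, read 64.3, 77 and 71 CPM in WT pellet, 112, 107 and 105 CPM in WT fraction 5/6, 89.4, 75.6 and 79.5 CPM in FMR1 KO pellet and 89.5, 76.2 and 92.2 CPM in FMR1 KO fraction 5/6. The higher level in fraction 5/6 was seen in the WT libraries, where the fractions did not overlap, whereas in FMR1 KO they did. The interaction was 0.54 ± 0.146 with an unadjusted p of 0.00439 and an adjusted p of 0.583 (edgeR). The other paralog, Fxr2, had enrichments of −0.37 in WT and −0.29 in FMR1 KO and an interaction of 0.08 ± 0.134. Cyfip1 and Cyfip2, the FMRP partners of the WAVE actin-regulating complex, were pellet-enriched in both genotypes, at 1.69 and 1.04 in WT and 1.48 and 0.80 in FMR1 KO, with interactions of −0.21 ± 0.301 and −0.23 ± 0.237. Of the 7 genes of FMRP, its paralogs and partners, 3 had an unadjusted p under 0.05, all higher (4.42% of all genes). The third of them was Nufip1, a nuclear partner of FMRP (0.33 ± 0.143, named after its value was seen).

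After Fblim1 and Spen, the 8 genes with the smallest unadjusted p among higher genes did not pass the adjusted threshold. Slc5a11, a sodium-coupled inositol transporter, had the pattern of Spen. It read 247, 229.7 and 315 CPM in WT fraction 5/6, 81.4, 63.8 and 87.5 CPM in WT pellet, 74.8, 63.7 and 96.1 CPM in FMR1 KO pellet and 44.4, 57.3 and 74.2 CPM in FMR1 KO fraction 5/6. Its interaction was 2.18 ± 0.317 (adjusted p = 0.165, edgeR). Its RNA in the homogenates was between 0 and 0.808 CPM in all 6 libraries, far below its RPF level.

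Radil, a RAP1 effector of cell adhesion, also differed through WT fraction 5/6. It read 112, 59.3 and 35.8 CPM there, 22.2, 24.1 and 22.6 CPM in WT pellet, 22.9, 20.0 and 20.3 CPM in FMR1 KO pellet and 13.3, 13.1 and 15.7 CPM in FMR1 KO fraction 5/6, for an interaction of 2.17 ± 0.449. Grin3b, an NMDA receptor subunit, read 7.55, 5.16 and 3.57 CPM in WT fraction 5/6 and 0.748, 0.969 and 1.09 CPM in FMR1 KO fraction 5/6, with pellets of 1.94, 1.81 and 1.66 CPM in WT and 1.75, 2.22 and 1.57 CPM in FMR1 KO. Its interaction was 2.56 ± 0.385 (adjusted p = 0.176, edgeR). In Fblim1, Spen, Slc5a11, Radil and Grin3b alike, the pellets of the genotypes overlapped and fraction 5/6 did not.

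Rph3a, the rabphilin 3A gene of synaptic vesicle exocytosis, differed through the pellet as well. It read 361, 463 and 392 CPM in FMR1 KO pellet and 216, 242 and 197 CPM in WT pellet, against 201, 206 and 219.7 CPM in FMR1 KO fraction 5/6 and 205, 318 and 360.3 CPM in WT fraction 5/6, for an interaction of 1.39 ± 0.272. Rprd1b, a regulator of RNA polymerase II, was high in the FMR1 KO pellet (69.2, 176 and 77.9 CPM) and between 30.9 and 46.8 CPM in the other 9 libraries, for an interaction of 2.04 ± 0.414. Of 4930579F01Rik, the FMR1 KO pellet held 4.99, 4.07 and 3.57 CPM and the WT pellet 1.12, 1.25 and 1.02 CPM, for an interaction of 1.65 ± 0.302. The innate immune kinase gene Irak4 (0.64 ± 0.123) and Rsrc2 (0.60 ± 0.123) had smaller interactions.

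Of the genes with the smallest unadjusted p among lower genes, Ankrd6, an ankyrin-repeat protein of planar cell polarity signalling, was lower in FMR1 KO in both fractions. It read 218, 275 and 178 CPM in WT pellet and 109, 72.6 and 104 CPM in WT fraction 5/6, but 16.4, 16.6 and 15.9 CPM in FMR1 KO pellet and 23, 20.6 and 17.7 CPM in FMR1 KO fraction 5/6. Both fractions differed between genotypes at the adjusted threshold (−3.78 in the pellet, adjusted p = 4e-05, and −2.22 in fraction 5/6, adjusted p = 0.00116, edgeR), and the interaction was −1.56 ± 0.264 (adjusted p = 0.36). Its homogenate RNA, at 15.9, 17.6 and 14.2 CPM in WT and 15.7, 17.4 and 16.1 CPM in FMR1 KO, overlapped.

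In 5 further genes all FMR1 KO fraction 5/6 libraries lay above the other 9. Faap20, of the Fanconi anaemia DNA repair pathway, read 11.2, 8.83 and 9.68 CPM there and 3.95 to 7.27 CPM in the other 9 libraries (−1.21 ± 0.206). Zfp580, a zinc finger gene, read 40.9, 35.2 and 34 CPM there and 18.3 to 24.7 CPM elsewhere (−0.64 ± 0.122). Gatd1 (−0.68 ± 0.157) and the proteasome assembly chaperone gene Psmg4 (−0.75 ± 0.164) showed the same order, as did the alpha globin gene Hba-a1 (−1.06 ± 0.231). Hba-a1 read 5.38, 4.55 and 6.1 CPM in WT pellet, 4.95, 5.09 and 6.21 CPM in WT fraction 5/6, 2.51, 3.64 and 3.28 CPM in FMR1 KO pellet and 6.73, 6.62 and 6.71 CPM in FMR1 KO fraction 5/6. The beta globin gene Hbb-bt (−0.73 ± 0.162) differed through the pellet, with 2.13, 2.42 and 2.45 CPM in FMR1 KO and 3.7, 3.68 and 4.13 CPM in WT. Globins come from red blood cells, and their values are uncertain because the near-identical copies Hba-a2 and Hbb-bs can share their reads.

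The last of these lower genes each rested on 2 libraries with very high values. Tlx1, a homeobox transcription factor, read 502 and 525 CPM in WT pellet replicates 2 and 3, but 0.043 CPM in replicate 1 and at most 5.69 CPM in the other libraries. Hrh3, the histamine H3 receptor, read 536 and 914 CPM in FMR1 KO fraction 5/6 replicates 1 and 2, but 6.3 CPM in replicate 3 and 3.35 to 5.06 CPM elsewhere. Their interactions, −15.06 ± 2.89 and −7.01 ± 1.59, thus compare libraries of a group that differed widely from each other.

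The 12 standard nuclease libraries, made from other preparations with 10 mM MgCl2, gave the same measure in separate samples. In 1 of them, the library labelled WT fraction 5/6 replicate 3, Fmr1 was at 2.98 CPM, against 91.3 and 96.1 CPM in its group, so values are given with and without it. The interaction passed the adjusted threshold for 0 of 13740 genes with it (766 at an unadjusted p under 0.05) and 0 of 13973 without it (825 unadjusted, edgeR). These libraries called few differences between the fractions too. Pellet and fraction 5/6 differed for 1 of 13740 genes in WT (0.00728%) and 0 in FMR1 KO, with 1663 and 3731 genes at an unadjusted p under 0.05. Fblim1 was at 9.22, 6.68 and 8.26 CPM in WT fraction 5/6 there and between 5 and 11.6 CPM throughout, and its interaction was −0.25 ± 0.325 (−0.28 without that library). Spen had 23.9, 30.7 and 92.7 CPM in WT fraction 5/6 and 22.8, 21.3 and 32.9 CPM in FMR1 KO fraction 5/6, with an interaction of 1.01 ± 0.641, or 0.15 without it. Adam12 was between 0.719 and 5 CPM in all 12, with an interaction of 0.06 ± 1.04 (0.19 without it). The very high levels of these 3 genes in a WT group were thus seen in the low nuclease libraries but not in the standard nuclease ones.

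**Figure D2:**
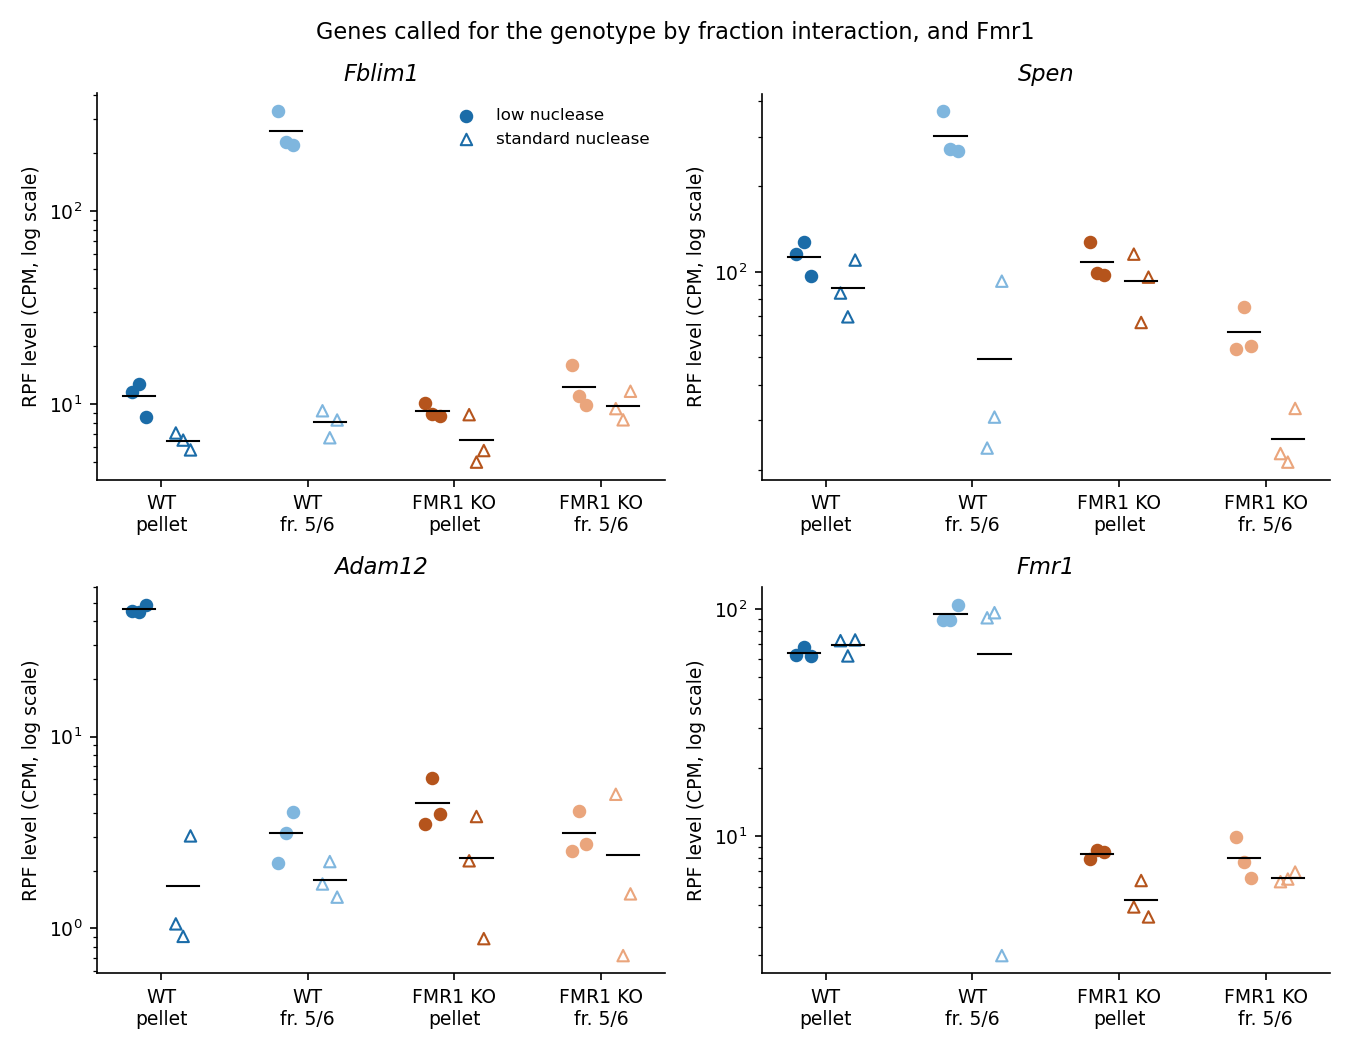
RPF levels (CPM, log axis) of Fblim1, Spen, Adam12 and Fmr1, with 1 point per library (filled circles for low nuclease, open triangles for standard nuclease, 3 of each per group) and black lines at group means. The low nuclease group that stood apart was WT fraction 5/6 for Fblim1 and Spen and WT pellet for Adam12, and 1 standard nuclease library of WT fraction 5/6 lies with the FMR1 KO libraries for Fmr1.

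Of the 10 higher and 10 lower genes with the smallest p, 9 and 9 could be tested in the standard nuclease libraries, where 5 and 5 had the same sign (4 and 4 with that library left out). Hrh3 was the 1 gene of them with an unadjusted p under 0.05 there, and its sign was opposite (5.37 ± 1.31). Slc5a11 was between 0.0642 and 1.81 CPM and Ankrd6 between 6.42 and 10.4 CPM in the standard nuclease libraries. Across genes the interactions of the 2 preparations correlated at r = 0.0217 and rho = −0.0164 (n = 13677), or 0.0356 and 0.0859 without that library (n = 13896). A test of the difference between preparations passed for 3 of 15504 genes (0.0193%), and for 11 with the library labelled WT fraction 5/6 replicate 3 left out. The 3 were Fblim1 (4.39 ± 0.462, adjusted p = 0.000258, edgeR), Lingo3, a neuronal leucine-rich repeat protein whose level in standard nuclease WT fraction 5/6 ran from 14.3 to 4691 CPM, and Mrpl1, a mitochondrial ribosomal protein with interactions of 0.36 ± 0.106 in the low nuclease and −0.63 ± 0.134 in the standard nuclease libraries (adjusted p = 0.0339 for both).

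**Figure D3:**
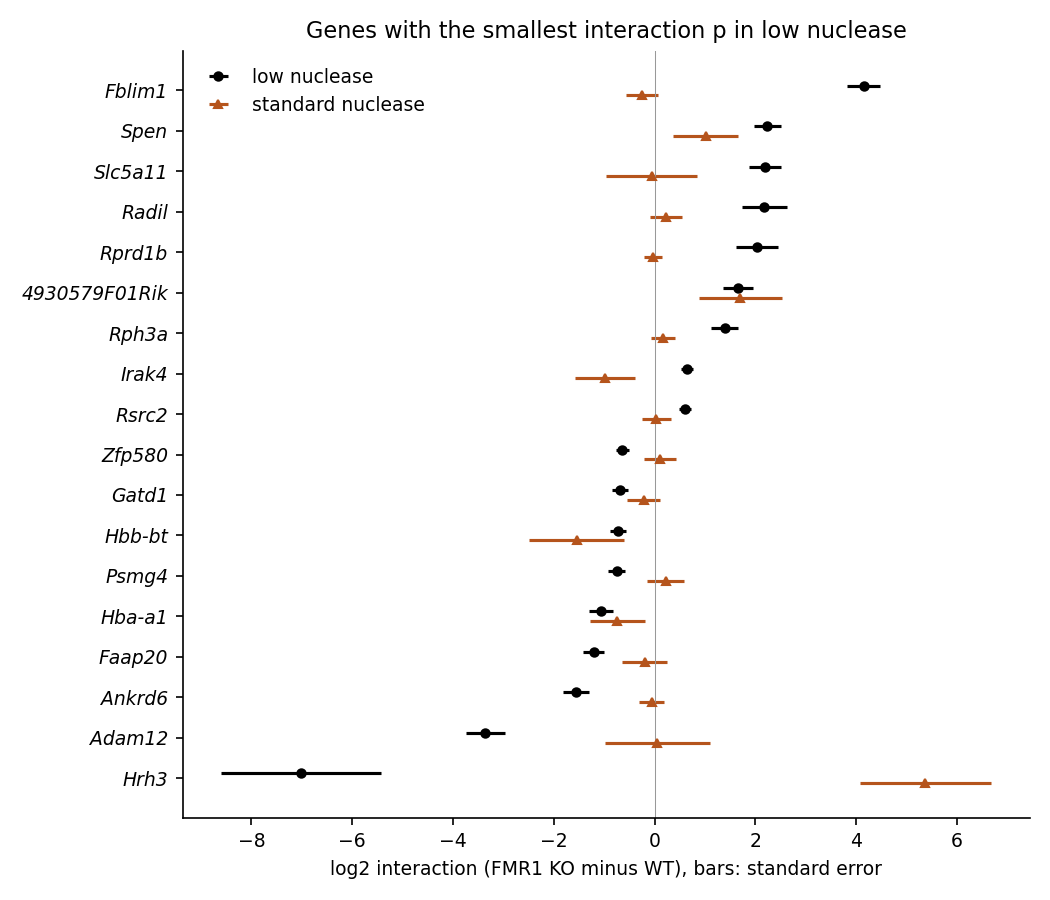
Interaction (log2, with bars of 1 SE) for the 18 genes with the smallest p that could be tested in both preparations, in the low nuclease and standard nuclease libraries. Most standard nuclease values lie near 0, and Hrh3 has opposite signs in the 2 preparations.

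Gene lists were then described by role, beside the median of −0.05 and the 56.5% below 0 over all genes. FMRP targets by crosslinking and mRNAs whose ribosomes resist run-off had median enrichments above 0 in both genotypes. Of the 186 run-off resistant gene identifiers (185 list entries), 103 were higher in the pellet in WT (13.5% of all genes) and 80 in FMR1 KO (12.7% of all genes), with median enrichments of 0.945 and 0.783. Among 262 FMRP targets of the shorter list, 139 and 131 were higher, with medians of 0.771 and 0.688, and among 751 identifiers of the longer list (749 entries) 323 and 277 were, with medians of 0.455 and 0.369. Their median interactions were −0.17, −0.10 and −0.13. With each library left out in turn they ran from −0.28 to −0.04 (without FMR1 KO pellet replicates 2 and 1), from −0.17 to −0.03 (without WT fraction 5/6 replicate 2 and FMR1 KO fraction 5/6 replicate 2) and from −0.20 to −0.07 (without WT fraction 5/6 replicates 2 and 1), so each stayed below 0 but its size turned on the libraries used. At an unadjusted p under 0.05 they counted 3 higher and 2 lower, 2 and 4, and 9 and 20 genes, which are smaller shares than the 4.42% and 4.04% of all genes. In the standard nuclease libraries the medians were 0.12, 0.18 and 0.10, or −0.25, −0.16 and −0.11 with the library labelled WT fraction 5/6 replicate 3 left out, so their sign there turned on that library.

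The proteins of RNA granules and mRNA transport, which pack, carry and hold silent mRNAs, had a median interaction of 0.20 over 56 genes, with 25.0% below 0. Of these, 7 had an unadjusted p under 0.05, all higher, or 12.5% against 4.42% of all genes. Their median enrichment was −0.31 in WT, where 17 genes were lower in the pellet (12.7% of all genes), and −0.09 in FMR1 KO, where 5 were (15.5% of all genes). Hnrnpa2b1, an RNA-binding protein of mRNA transport and splicing, read 654, 761 and 605 CPM in WT pellet, 1285, 1207 and 1158 CPM in WT fraction 5/6, 876, 732 and 704 CPM in FMR1 KO pellet and 1007, 852 and 910.0 CPM in FMR1 KO fraction 5/6. The fractions were closer in FMR1 KO than in WT, by 0.59 ± 0.203 (unadjusted p = 0.015, not passing the adjusted threshold in edgeR).

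Upf3b, of nonsense-mediated decay, had the same arrangement. It read 20.6, 21.4 and 15.8 CPM in WT pellet, 38, 32.4 and 30.6 CPM in WT fraction 5/6, 26.7, 20.1 and 21 CPM in FMR1 KO pellet and 25.7, 20.9 and 23.5 CPM in FMR1 KO fraction 5/6 (0.76 ± 0.218). The others, which were chosen by their values, were Ddx1 (0.46), Igf2bp3 (0.40), Stau2 (0.36), Syncrip (0.53) and Upf2 (0.53). The list's median stayed between 0.12 and 0.31 as each library was left out in turn, the lowest value being that without FMR1 KO pellet replicate 1, and it was 0.03 in the standard nuclease libraries. The translation initiation and elongation factors had a median of 0.05 over 45 genes, with 4 higher and 0 lower at an unadjusted p under 0.05 (4.42% and 4.04% of all genes). Their median was −0.01 without FMR1 KO pellet replicate 1 and −0.05 under scaling by library size alone. Eif2s1, the alpha subunit of the initiation factor that brings the initiator tRNA, read 48.7, 55.2 and 47.6 CPM in WT pellet, 81, 74.6 and 79.6 CPM in WT fraction 5/6, 64.2, 54.8 and 54.8 CPM in FMR1 KO pellet and 69, 59.3 and 65.1 CPM in FMR1 KO fraction 5/6 (0.48 ± 0.137). Eif2s2 (0.54), Eif3j1 (0.54) and Eif3m (0.34) were the others.

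Respiratory chain and ribosomal protein genes had medians below 0. The shortest bin of coding length, described below, had a median of −0.16 with 69.3% below 0, and the part of coding length in these lists was not tested. Nuclear-encoded subunits of the respiratory chain, which couples electron transfer to ATP synthesis, had a median interaction of −0.21 over 76 genes, with 73.7% below 0. In WT 39 of them were lower in the pellet (12.7% of all genes) and in FMR1 KO 56 were (15.5%), with median enrichments of −0.54 and −0.77. An unadjusted p under 0.05 was found for 7, all lower (4.04% of all genes), namely Atp5d (−0.39), Atp5g1 (−0.62), Cox8a (−0.91), Cyc1 (−0.37), Ndufa11 (−0.61), Ndufs7 (−0.43) and Sdhd (−0.45). Atp5g1, which encodes the ring subunit of ATP synthase, read 35.3, 28.7 and 31.7 CPM in WT pellet, 44.3, 37.6 and 36.7 CPM in WT fraction 5/6, 22.1, 28.9 and 31.3 CPM in FMR1 KO pellet and 51.1, 52.8 and 52.3 CPM in FMR1 KO fraction 5/6. FMR1 KO fraction 5/6 was the highest group for it and for Sdhd, an anchor of complex II, which read 112, 98.4 and 104 CPM there and 61.7 to 81.1 CPM in the other libraries. The median of the list ran from −0.39 to −0.13 with each library left out in turn, and it was −0.30 in the standard nuclease libraries (−0.14 with the library labelled WT fraction 5/6 replicate 3 left out).

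Ribosomal protein genes had median enrichments below 0 in both genotypes, and those lower in the pellet were 56 of 82 cytosolic ones in WT and 62 in FMR1 KO, and 36 and 62 of 78 mitochondrial ones (12.7% of all genes in WT and 15.5% in FMR1 KO). Their median interactions were −0.14 and −0.15. The cytosolic median ran from −0.27 to −0.06 (without FMR1 KO pellet replicates 3 and 1) and the mitochondrial one from −0.25 (without FMR1 KO pellet replicate 3) to −0.10 (without WT pellet replicate 1). Of the cytosolic ones 2 were higher and 3 lower at an unadjusted p under 0.05, and of the mitochondrial ones 2 and 5 (4.42% and 4.04% of all genes). Rps3a1, of the small subunit, was among the higher ones, at 42.9, 37.3 and 38.8 CPM in WT pellet, 76.3, 59.9 and 67.5 CPM in WT fraction 5/6, 44.1, 40.3 and 49.6 CPM in FMR1 KO pellet and 59.6, 44.7 and 51.7 CPM in FMR1 KO fraction 5/6 (0.56 ± 0.186). Rplp1, of the ribosomal stalk, was among the lower ones (−0.61 ± 0.246). Neither gene passed the adjusted threshold, and both were named after their values were seen.

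The lists of membrane and secreted proteins had median enrichments above 0 in both genotypes and median interactions below 0. Of the 60 secreted and matrix genes 33 were higher in the pellet in WT and 25 in FMR1 KO, of the 43 channels 22 and 16, of the 54 reticulum genes 14 and 13 and of the 49 postsynaptic genes 20 and 13 (13.5% of all genes in WT and 12.7% in FMR1 KO). The 60 genes of secreted and extracellular matrix proteins had a median interaction of −0.33, with 88.3% below 0, and the 43 ion channels and pumps one of −0.25, with 88.4% below 0. The 54 genes of endoplasmic reticulum translocation, folding and glycosylation had −0.15 and the 49 postsynaptic scaffolds and receptors −0.14. These medians moved with several libraries. With FMR1 KO pellet replicate 1 left out they became −0.08, −0.11, 0.00 and 0.00, with FMR1 KO pellet replicate 2 left out −0.58, −0.56, −0.38 and −0.34, and with FMR1 KO fraction 5/6 replicate 2 left out −0.09, −0.08, −0.05 and 0.05. The postsynaptic median was also near 0 with WT fraction 5/6 replicate 1 left out. In the standard nuclease libraries the medians were 0.24, 0.38, −0.03 and 0.11, or −0.10, −0.25, −0.19 and −0.13 once the library labelled WT fraction 5/6 replicate 3 was left out. The level of the secreted proteins, their median log2 CPM minus that of all genes tested in the library, was −0.18 in FMR1 KO pellet replicate 1. It was 0.71 and 0.67 in the other FMR1 KO pellets and 0.61, 0.82 and 1.17 in WT pellet. Sparcl1, an astrocyte matrix protein, read 143, 437 and 319 CPM in the 3 FMR1 KO pellets, and Apoe, the lipid carrier made by glia, 119, 358 and 276 CPM. Sparcl1 had an interaction of −0.13 ± 0.566, which was 0.21 without FMR1 KO pellet replicate 1 and −0.50 without replicate 2. The part of any library in the list medians beyond these values was not tested.

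At an unadjusted p under 0.05, the secreted list had 0 higher and 1 lower gene (Col6a3), the channels 0 and 1 (Ryr1), the reticulum genes 1 and 2 (Uggt1, Dad1 and Sec61b) and the postsynaptic genes 0 and 3 (Grin2a, Grin2d and Grm2). Over all genes the shares were 4.42% and 4.04%, and the secreted and channel lists lay below both. Ryr1, the muscle-type calcium release channel, read 1936 CPM in WT pellet replicate 3 and between 3.45 and 17.6 CPM in the other 11 libraries. Grm2, a metabotropic glutamate receptor, read 1728 CPM in FMR1 KO fraction 5/6 replicate 1 and between 16.5 and 43.4 CPM elsewhere. Grin2d, an NMDA receptor subunit, read 1017 CPM in the same library, where replicates 2 and 3 read 37.8 and 32.6 CPM.

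Cytoskeletal, presynaptic and very large proteins mostly had medians closer to that of all genes. The 50 tubulins, actins and microtubule-associated proteins had a median of −0.03 and enrichments of 0.283 and 0.262, and the 44 presynaptic genes a median of −0.01. Both medians changed sign with 1 library left out, running from −0.11 to 0.06 (without WT fraction 5/6 replicates 2 and 3) and from −0.07 to 0.03 (without WT fraction 5/6 replicate 2 and FMR1 KO fraction 5/6 replicate 2). In the standard nuclease libraries they were 0.12 and 0.11, or −0.06 and −0.13 once the library labelled WT fraction 5/6 replicate 3 was left out. Map1b, the microtubule-associated protein of growing axons, read 9106, 10701 and 8622 CPM in WT pellet, 2227, 2458 and 951 CPM in WT fraction 5/6, 12404, 7671 and 8062 CPM in FMR1 KO pellet and 2151, 1402 and 1518 CPM in FMR1 KO fraction 5/6. Pellet and fraction 5/6 did not overlap in either genotype, and the interaction was 0.14 ± 0.517. Map2 and Tubb3, both abundant neuronal cytoskeletal genes, had 0.37 ± 0.376 and −0.15 ± 0.323.

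The 24 ubiquitin ligase and BEACH-domain giants were the most pellet-enriched of these lists, with medians of 1.99 in WT and 1.89 in FMR1 KO, and 24 and 23 of them were higher in the pellet at the adjusted threshold (13.5% and 12.7% of all genes). Hectd4, a giant of this kind, read 774, 917 and 858 CPM in WT pellet, between 74.3 and 124 CPM in WT fraction 5/6, 1009, 749 and 774 CPM in FMR1 KO pellet and 133, 132 and 140.5 CPM in FMR1 KO fraction 5/6. Its interaction was −0.45 ± 0.267 and the median of the list was −0.14, with a range from −0.29 to −0.05 (without WT fraction 5/6 replicates 2 and 1). In the standard nuclease libraries it was 0.93, or −0.20 once the library labelled WT fraction 5/6 replicate 3 was left out. The 49 chromatin regulators had a median of 0.01, which was −0.07 without WT fraction 5/6 replicate 2 and −0.08 under library size alone, and 0.38 in the standard nuclease libraries (−0.09 with that same library left out), with Kmt2d the 1 gene at an unadjusted p under 0.05 (−1.21 ± 0.474). The 45 cell cycle and replication genes had a median of 0.19 (0.07 to 0.30 without FMR1 KO pellet replicates 1 and 2), with 2 higher at an unadjusted p under 0.05, Ccne2 (0.48 ± 0.141) and Rfc1 (0.44), a share near the 4.42% of all genes.

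**Figure D4:**
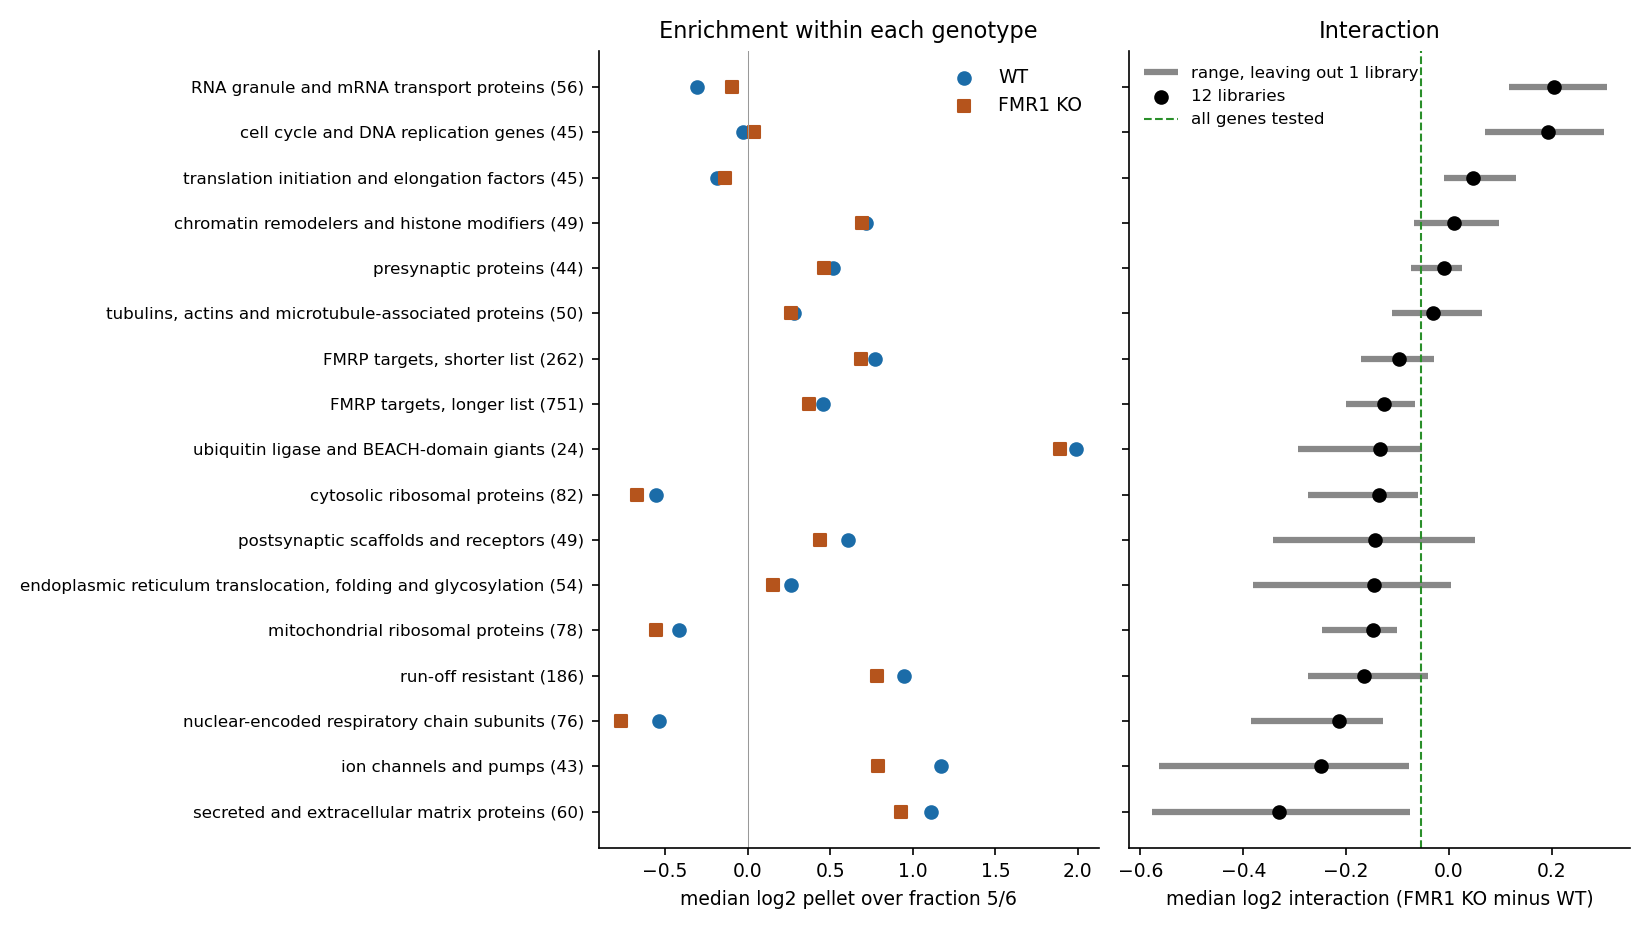
Median log2 enrichment of each gene list in WT and FMR1 KO (left) and median interaction (right) for the described lists of 24 genes or more, cell type markers left out, with the number of genes in brackets, bars for the range as each library was left out in turn and a dashed line at the median of all genes. Of these lists, RNA granule proteins lie highest at 0.20 and secreted proteins lowest at −0.33, with a bar that reaches −0.08.

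Markers of cell types were examined since each preparation was made from whole brains, where a difference in the number of cells of a type and one in RNA per cell cannot be told apart. The 13 neuronal markers had a median interaction of −0.14, the 11 of astrocytes and radial glia −0.06, the 10 of microglia −0.13, the 11 of endothelium and pericytes −0.16 and the 8 of choroid plexus and ependyma −0.16. With each library left out in turn, the microglia median ran from −0.39 (without FMR1 KO fraction 5/6 replicate 1) to 0.02 (without FMR1 KO pellet replicate 1), that of endothelium and pericytes from −0.82 to 0.23 (without FMR1 KO pellet replicates 2 and 1), that of choroid plexus from −0.28 to 0.06 (without WT pellet replicates 2 and 3) and that of astrocytes from −0.16 to 0.01 (without WT fraction 5/6 replicate 1 and FMR1 KO fraction 5/6 replicate 3), so none of these kept its sign throughout. The neuronal median ran from −0.25 to −0.02 (without WT fraction 5/6 replicates 2 and 3). The 11 oligodendrocyte lineage markers had −0.33, or −0.09 without FMR1 KO pellet replicate 1 and −0.08 without FMR1 KO fraction 5/6 replicate 2, and Olig1 and Olig2, transcription factors of that lineage, were lower at an unadjusted p under 0.05 (4.04% of all genes). The 7 meningeal fibroblast markers had −0.50 with 7 of 7 below 0, and ran from −0.84 to −0.22 (without FMR1 KO pellet replicate 2 and FMR1 KO fraction 5/6 replicate 2). In the standard nuclease libraries the meningeal median was 0.27, or −0.14 once the library labelled WT fraction 5/6 replicate 3 was left out, and that of endothelium and pericytes 0.87, or 0.77. The 6 blood cell markers had the lowest of these marker medians, −0.78, with 6 of 6 below 0 and 3 (Hba-a1, Hba-a2 and Hbb-bt) lower at an unadjusted p under 0.05 (4.04% of all genes).

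The level of the blood markers was taken as their median log2 CPM minus that of all genes tested in the library. It was −1.77, −1.71 and −1.53 in WT pellet and −1.79, −1.46 and −1.33 in WT fraction 5/6. In FMR1 KO it was −2.32, −2.21 and −2.26 in the pellet and −1.4, −1.4 and −1.53 in fraction 5/6. The 3 FMR1 KO pellets were the lowest libraries, and fraction 5/6 overlapped between genotypes. Their median interaction stayed between −0.91 and −0.67 with each library left out in turn, and it was −0.25 in the standard nuclease libraries (−0.70 with the library labelled WT fraction 5/6 replicate 3 left out). The part of blood RNA in the other results was not tested.

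Coding length was compared next. The 15718 genes with an annotated coding length were split into 5 bins of 3143 or 3144 genes. The median interaction was −0.16 in the shortest bin (22 to 732 nt), −0.07 and −0.03 in the following ones, 0.01 in the fourth and −0.02 in the longest (2472 to 105639 nt). In the shortest bin 65 genes were higher and 220 lower at an unadjusted p under 0.05, out of 3144, against 4.42% and 4.04% of all genes, and 69.3% were below 0. In the fourth, 185 were higher and 68 lower. The shortest genes were lower in the pellet at the adjusted threshold 787 times in WT (12.7% of all genes) and 1326 times in FMR1 KO (15.5% of all genes), with median enrichments of −0.33 and −0.45. The longest bin had medians of 0.51 and 0.52.

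With each library left out in turn, the median of the shortest bin stayed between −0.23 and −0.09. In the standard nuclease libraries the medians from shortest to longest were −0.16, −0.10, −0.00, 0.07 and 0.28, and with the library labelled WT fraction 5/6 replicate 3 left out they were −0.06, −0.06, −0.02, −0.01 and −0.01. The shortest bin was thus below 0 in both preparations, and the positive value of the longest bin in the standard nuclease libraries was not found without that library. Genes of a bin share libraries and are not replicates, so these medians are descriptions. The 61 genes with coding sequences of at least 12000 nt had a median of −0.13.

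**Figure D5:**
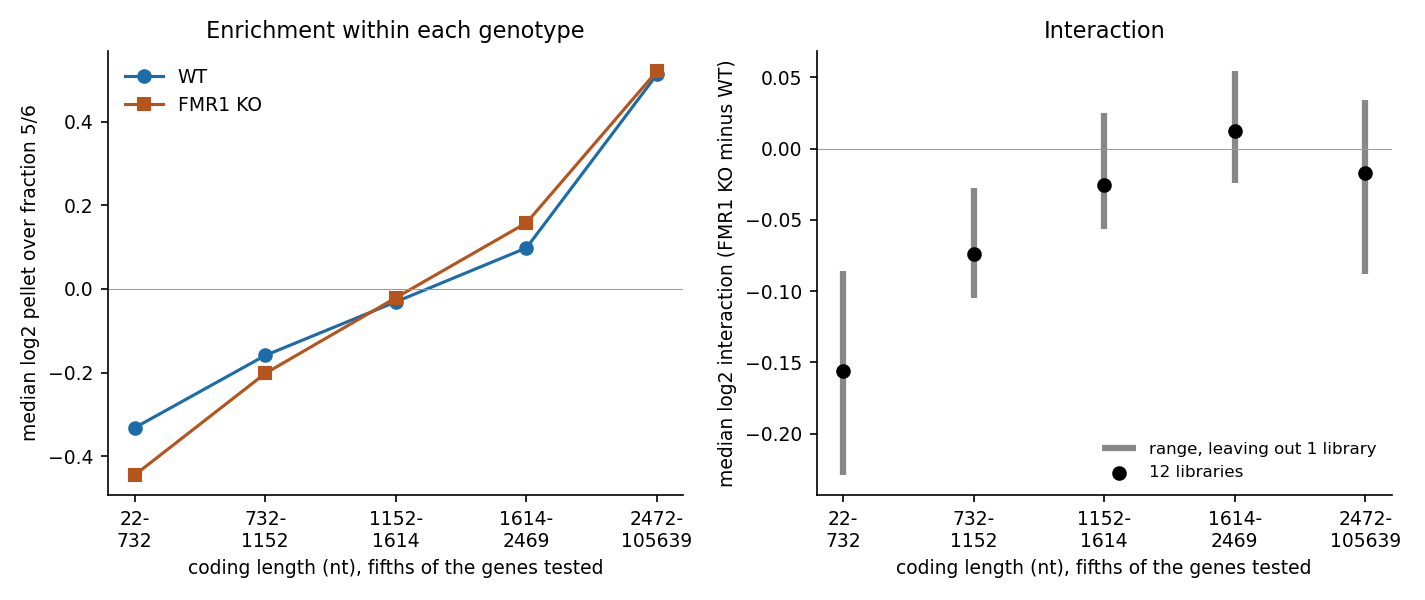
Median log2 enrichment in WT and FMR1 KO (left) and median interaction (right) by bin of coding length, with bars for the range of the interaction as each library was left out in turn. Enrichment rises with coding length in both genotypes, from −0.33 to 0.51 in WT and from −0.45 to 0.52 in FMR1 KO, and the interaction is lowest in the shortest bin.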

How the data were processed

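RPFs and RNA were sequenced by the authors, and the deposited values used here are raw read counts per gene. According to the submitters' processing notes and the study's methods, adapters were trimmed with cutadapt 2.10, rRNA and other non-coding reads were removed with Bowtie2 2.3.5, reads were aligned to GRCm38 with STAR 2.7.8a, duplicates were marked with Picard and removed with SAMtools 1.19.2, and genes were counted with featureCounts 2.2.0. Removing duplicates can lower the count of very abundant short fragments. Whether counting used strand is not given in the sources used here, so reads of overlapping genes cannot be separated.

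Of 16614 rows, 16568 were protein-coding in GENCODE M21, and 15910 were tested after filterByExpr with Cdk8 removed before library sizes. Libraries were scaled by TMM and tested with edgeR 4.0.16 in R 4.3.3 (quasi-likelihood, 4 groups, two-sided, Benjamini-Hochberg over all genes tested, threshold 0.05). Values of 12 libraries with 3 per group are given as TMM-scaled CPM. Fold changes are log2 values from the edgeR fit with its default prior count, and SE is the fold change over the square root of F. A prior count of 2 was used only for log2 levels, from which the principal components, correlations of libraries, overlap of ratios and list levels were taken. The depths, 23634940 to 62310787 counted reads, give even genes of a few CPM over 20 counts. All 36 sample columns were matched to labels. Homogenate RNA levels (6 libraries, 41586791 to 141505786 reads) were added after seeing the data, as levels with no test. The code was tested on simulated data.

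The members and lists were chosen with earlier results of these data known. The lists hold background knowledge, except FMRP targets and run-off resistant genes, whose names were taken from the study. Genes were named by rule, namely all with an adjusted p under 0.05 (at most 12 each way), the 10 higher and 10 lower genes with the smallest unadjusted p and at least 20 counts on average, Fmr1, Fxr1, Fxr2, Cyfip1 and Cyfip2, the 4 most abundant members of a list described, of which a selection is printed, and Y-linked genes with Xist (5 tested, median interaction 0.16, with a range of 0.00 to 0.36 as each library was left out). Other genes were named after their values were seen. Mitochondrially encoded genes (7, median −0.32, from −0.99 to 0.12 as each library was left out) and histones (4, median −0.67, from −1.09 to −0.45, and 0.56 in the standard nuclease libraries) were too few to describe further. Alternatives were another scaling, other filters, all annotated genes, Cdk8 kept, replicate blocks, DESeq2 1.42.0, limma-voom (limma 3.58.1), all 24 RPF libraries and leaving out libraries.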

Additional observations from a re-analysis of the deposited data

Results flagged for a closer look

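The results of 3 genes stood out because the pellet to fraction 5/6 ratio differed between genotypes by the test of the difference itself. They were Fblim1 (4.15), Spen (2.24) and Adam12 (−3.36), all on the log2 scale, FMR1 KO minus WT, and in each the ratios of the genotypes did not overlap. Raw counts behind them ran from 232 to 10765 for Fblim1, from 2216 to 13073 for Spen and from 53 to 1759 for Adam12. Fblim1 also differed between the preparations, with the low nuclease interaction exceeding the standard nuclease one by 4.39.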

How the results depend on the processing

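The interaction was called for 3 genes in the reported fit, for 1 with library size alone in place of TMM, for 92 with DESeq2 and for 5 with the replicate number as a block. As libraries were left out 1 at a time the count ran from 1 (without WT pellet replicate 2 or WT fraction 5/6 replicate 2) to 10 (without WT fraction 5/6 replicate 3), and was 7 without WT fraction 5/6 replicate 1 and 5 without FMR1 KO pellet replicate 3 or FMR1 KO fraction 5/6 replicate 2. Without replicate 1 of all groups it was 9. The count at an unadjusted p under 0.05, 1347, was 2325 with the replicate block within genotype, 868 with all 24 libraries and 603 without replicate 1, 659 without replicate 2 and 881 without replicate 3 of all groups. With library size alone, enrichment was called for 4893 genes in WT and 5848 in FMR1 KO. With libraries left out 1 at a time it was called for 2095 to 4412 genes in WT, with 2095 without WT fraction 5/6 replicate 1 and 2207 without WT pellet replicate 3, and for 2669 to 4372 in FMR1 KO, with 2669 without pellet replicate 2 and 2711 without fraction 5/6 replicate 1. The standard nuclease interaction was called for 0 genes and for 1 with the replicate block, and the difference between preparations for 11 without the library labelled WT fraction 5/6 replicate 3 (added after seeing the data). The shorter FMRP target list had a median of −0.0977 in the low nuclease libraries and 0.175 in the standard nuclease ones. The cause of these differences was not tested. Library size alone moved the median of all genes from −0.05 to −0.15. Spen was not called under library size alone (adjusted p = 0.084, edgeR), the stricter filter (0.0719), Cdk8 kept (0.0891), all 24 libraries (0.209) or a block within genotype (0.28), and Adam12 under library size alone (0.084) and all 24 libraries (0.14). Fblim1 was called in each of these and was not called without replicate 2 (0.152) or replicate 3 (0.054) of all groups. Replicate numbers were not taken as pairs in the reported fit, since the labels do not say whether same-numbered libraries came from the same preparation. Same-numbered pellet and fraction 5/6 libraries of a genotype deviated together at r of 0.0644 to 0.347. Of these libraries, 5 of 6 pellet and 4 of 6 fraction 5/6 ones correlated best with their own number. This is a hint of pairing, which the reported fit leaves out and the block within genotype takes in. Of the 25 genes named by their test or as FMRP relatives, 0 changed sign under DESeq2 or a block within genotype and 1 did with some library left out, whereas of the abundant list members with the Y-linked genes and Xist 45 (44.1%) did, 5 (4.9%) under DESeq2 and 2 (1.96%) under the block. Groups of 3 limit the precision.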
